A study of Mus musculus with 30 samples.

Results

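Ephrins, Eph receptors, semaphorins, plexins and neuropilins are the cell surface and secreted guidance proteins described here, taken by gene symbol as the mouse genes whose names begin with Efna, Efnb, Epha, Ephb, Sema, Plxna to Plxnd, or are Nrp1 or Nrp2. The rule found 53 genes, of which all 53 were in the sphere table of 26005 genes and 47 were in the captured table of 14997 genes. Epha1, Epha6, Sema3d, Sema3g, Sema4c and Sema7a were not analysed in captured cells. Captured libraries came from mice carrying Lmx1aCreERT2, a Cre recombinase under control of the floor plate gene Lmx1a that acts after tamoxifen, together with R26TRAPC, and all 4 ages share this genotype. Laser capture took cells of the midbrain floor plate, the ventral midline of the neural tube, at embryonic day 11 (E11, 4 libraries), E13 (5 libraries), E18 (5 libraries) and postnatal day 70 (P70, 6 libraries). Cultured spheres from adult brain gave 5 libraries named MB and 5 named FB, treated in vitro, with no genotype given. The design text names ependymal spheres of the midbrain aqueduct and neurospheres of the lateral ventricle, and what MB and FB stand for is not spelled out in the names. Whether the libraries within a group stem from different animals or cultures is not stated. So p-values speak of the spread among these samples alone, which may be technical, and would be too small if several captures came from 1 animal.

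Eph receptors are receptor tyrosine kinases whose ligands, the ephrins, sit on neighbouring cells, so the signal needs cell contact and can run into both cells. A ephrins are held in the membrane by a lipid anchor, and B ephrins cross it. Semaphorins are secreted (class 3) or membrane bound (classes 4 to 7) and act through plexins, with neuropilins as the ligand-binding partners for most class 3 members. In the ventral midline of the developing nervous system these families are known for turning growing axons away from or across the midline, and Efnb3 is a known midline barrier of the spinal cord.

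The captured values behave like reads scaled to gene length and library size (RPKM) and are called units here. The table gives values for a gene only at ages where it averages 1 unit or more. By that limit 38 of the 47 members were listed at E11, and 39, 43 and 37 were listed at E13, E18 and P70, with 31 members listed at all 4 ages. The whole reads that could be recovered behind the values numbered 3291783 to 3858705 in E11 libraries, 2831518 to 4235675 in E13 libraries, 2642590 to 3453119 in E18 libraries and 1140337 to 2634509 in P70 libraries, which makes P70 the least precise age for low members. Sphere libraries held 6327198 to 8422358 counts in MB and 6676389 to 9291311 in FB. Of 8 floor plate markers, 8 were listed at E11, 7 at E13 and E18 (Lmx1b absent) and 6 at P70 (Shh and Corin absent). Their summed level averaged 436 units (E11), 430 (E13), 484 (E18, of which Ntn1 made 317) and 120 (P70). The summed level of 8 ependymal markers (Foxj1 and others) averaged 28.7 units (E11), 63.2 (E13), 7831 (E18) and 21462 (P70). That of 9 neuron markers spanned 358 to 1019, 993 to 3571, 1103 to 3791 and 465 to 902 units at these ages. In bulk samples, fewer cells of a type and less RNA per cell cannot be told apart. The summed members averaged 385 ± 18.4 units in the 4 E11 libraries (mean ± SD), 339 ± 57.1 in the 5 E13, 840 ± 94.3 in the 5 E18 and 316 ± 57.1 in the 6 P70 libraries.

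**Figure D1:**
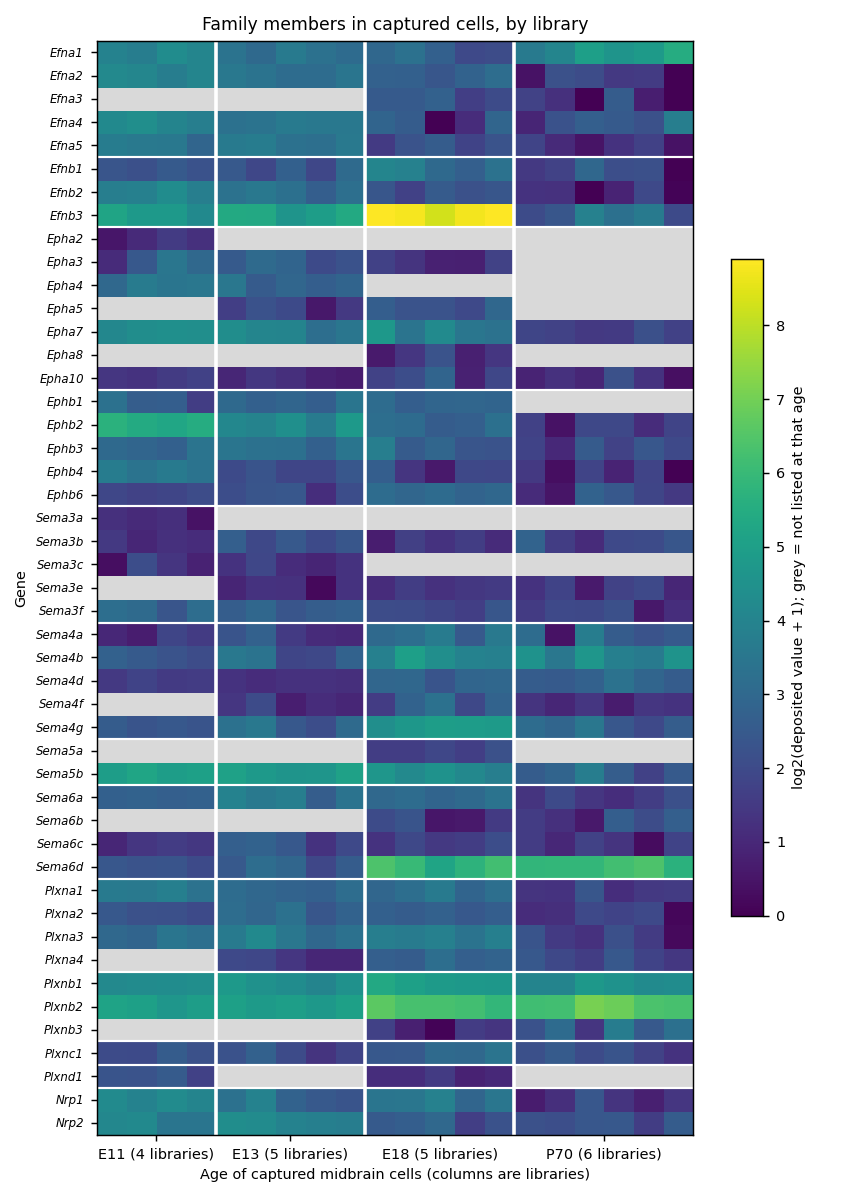
Each row is 1 of the 47 members and each column 1 of the 20 captured libraries, coloured by log2 of the deposited value plus 1, with grey where the gene was not listed at that age. Efnb3 was the brightest row at E18, and Sema6d and Plxnb2 were bright at both E18 and P70.

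For the members that turn the account, the stretch around the annotated start of transcription is shown first. RefSeq windows of build GRCm38.p6, 250 bases before to 50 after a start, were matched for 47 of the member symbols (61 windows, since some genes have several starts). Efnb3, Plxna1 and Plxna4 were among the members without a window, so the motif counts do not cover them. They held a median of 64.0% G and C, against 52.7% over all 32851 windows. Shown are 4 genes with higher levels at E18 than at E13 (Sema6d, Sema4b, Sema4g and Plxnb2) and Ephb2, which fell at each later age. Capitals mark matches of the searched motifs, and the windows lie at chr2:124653331-124653630 on the plus strand (Sema6d), chr7:80186620-80186919 on the plus strand (Sema4b), chr19:44989094-44989393 on the plus strand (Sema4g), chr15:89180739-89181038 on the minus strand (Plxnb2) and chr4:136835963-136836262 on the minus strand (Ephb2). Sema6d, Sema4b and Plxnb2 each have 2 windows, of which 1 is shown. For Sema6d and Sema4b the window shown is the one with a match, and the other holds none. Neither Plxnb2 window holds a match.
Sema6d: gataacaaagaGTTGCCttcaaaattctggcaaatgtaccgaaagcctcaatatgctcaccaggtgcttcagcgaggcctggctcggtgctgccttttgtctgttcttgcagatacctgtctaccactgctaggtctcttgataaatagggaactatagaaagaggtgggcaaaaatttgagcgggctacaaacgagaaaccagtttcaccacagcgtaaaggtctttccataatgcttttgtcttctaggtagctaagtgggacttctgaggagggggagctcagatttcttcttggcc
Sema4b: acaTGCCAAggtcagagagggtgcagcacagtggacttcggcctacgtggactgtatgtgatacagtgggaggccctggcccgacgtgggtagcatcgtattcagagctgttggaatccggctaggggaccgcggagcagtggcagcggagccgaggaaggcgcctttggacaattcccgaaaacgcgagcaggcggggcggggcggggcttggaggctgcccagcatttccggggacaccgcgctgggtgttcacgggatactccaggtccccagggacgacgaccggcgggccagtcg
Sema4g: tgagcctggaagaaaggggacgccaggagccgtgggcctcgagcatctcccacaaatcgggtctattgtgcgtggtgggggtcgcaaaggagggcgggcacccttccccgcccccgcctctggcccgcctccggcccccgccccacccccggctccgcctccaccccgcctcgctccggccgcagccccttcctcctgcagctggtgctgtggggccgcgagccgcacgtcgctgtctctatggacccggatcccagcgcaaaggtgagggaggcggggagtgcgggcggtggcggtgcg
Plxnb2: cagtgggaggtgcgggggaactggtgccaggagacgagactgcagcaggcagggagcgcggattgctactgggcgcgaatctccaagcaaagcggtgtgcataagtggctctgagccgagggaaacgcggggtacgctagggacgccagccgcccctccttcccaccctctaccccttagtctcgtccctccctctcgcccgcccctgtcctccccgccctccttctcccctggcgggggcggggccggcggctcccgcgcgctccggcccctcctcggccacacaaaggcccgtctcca
Ephb2: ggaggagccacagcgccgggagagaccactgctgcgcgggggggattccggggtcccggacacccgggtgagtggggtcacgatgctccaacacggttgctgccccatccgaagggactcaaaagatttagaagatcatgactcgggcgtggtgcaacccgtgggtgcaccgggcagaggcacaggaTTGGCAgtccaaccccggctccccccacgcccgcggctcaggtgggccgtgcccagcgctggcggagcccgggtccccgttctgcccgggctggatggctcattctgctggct
The letters GTTGCC, part of the X-box bound by ciliary RFX factors, were in 8 of the 61 member windows (13.1%), against 12.5% of all windows, when both strands were read. TTGGCA, a single nuclear factor I site, was in 3 member windows (4.92%) and 14.1% of all windows. AACAAT, a SOX motif, was also in 3 member windows (4.92%), against 10.7% of all. The paired nuclear factor I site, TTGGC followed by any 5 bases and GCCAA, was in 0 of 61 and 0.0365% of all windows, and the forkhead letters GTAAACA were in 0 of 61 and 3.65% of all. The paired and the single nuclear factor I site share the letters TTGGC.

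Among the ligands, Efnb3 had by far the highest level, and it was high at E18 only in these 4 ages. Efnb3 encodes ephrin B3, a transmembrane ephrin of the ventral midline, and lies on GRCm38 chromosome 11 from 69554092 to 69560205 on the minus strand. It measured 35.9, 26.5, 26.2 and 17.4 units in the E11 libraries and 41.5, 39.8, 23.4, 29.8 and 40.8 units in the E13 libraries. The E18 libraries held 474, 431, 309, 421 and 465 units. At P70 the lowest value was 2.99, the median 6.47 and the highest 14 units. The E11 and E13 values overlapped, every E18 value lay far above all others, and every P70 value lay below all earlier ones. Behind these values stood 4948 to 6512 recovered reads per library at E18 and 28 to 94 at P70.

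The E18 mean of 420 ± 65.8 units was 12 times the E13 mean of 35.0 ± 8.07 (SD, n = 5 each), with a change of 3.56 on the log2 scale (SE 0.31, limma adjusted p = 6.9e-09). At P70 the mean of 7.41 ± 4.69 units (n = 6) was lower, and the E18 mean was 56.6 times as high, with a change of -5.83 on the log2 scale (SE 0.30, limma adjusted p = 2.38e-11). Efnb3 made up 42.6% to 54.6% of the summed level of all listed members in the E18 libraries. In the other libraries its share was 4.83% to 8.87% (E11), 7.24% to 12% (E13) and 0.997% to 3.64% (P70). Between E13 and E11 its change of 0.40 did not pass (SE 0.33, limma adjusted p = 0.44). The E18 library with the lowest Efnb3, replicate 3, had the highest summed level of the neuron markers (3791 units) and the lowest of the ependymal markers (6379 units). The E18 library with the highest Efnb3, replicate 1, had the lowest neuron sum (1103 units). E18 replicate 5 had the next highest Efnb3 with a low ependymal sum (6592 units) and a high neuron sum (2693 units), so the marker sums did not order all 5 libraries. Of the neighbouring genes, Wrap53 had means of 33.7 ± 4.56 units (E11), 19.5 ± 3.40 (E13), 44.7 ± 13.6 (E18) and 34.1 ± 12.1 (P70), with SD over the 4, 5, 5 and 6 libraries, and its highest mean too was at E18. Dnah2, an axonemal dynein, was not listed at E11 or E13 and averaged 17.6 ± 2.95 units at E18 and 15.7 ± 2.94 at P70.

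**Figure D2:**
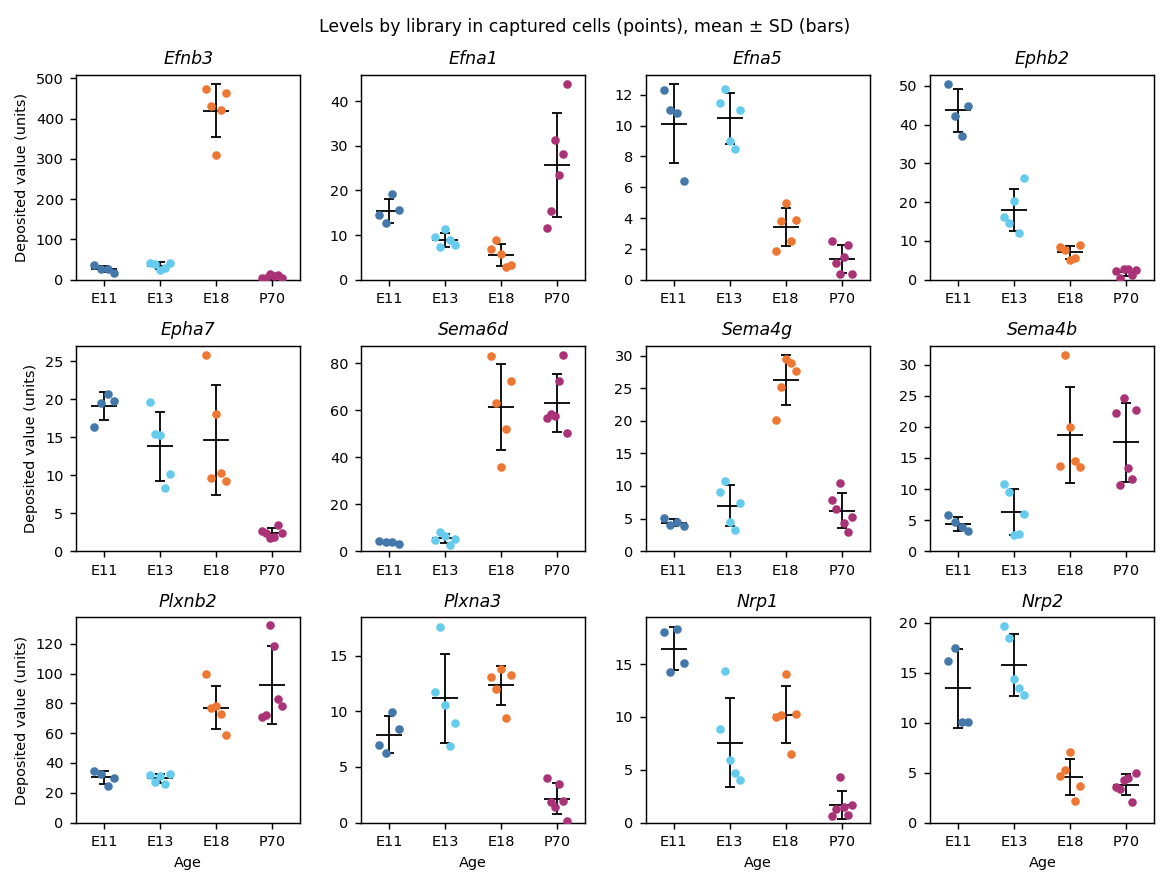
Points are captured libraries, bars the mean ± SD, with age on the x axis and the deposited value in units on a linear y axis that starts at 0 in each of the 12 panels. Efnb3 stood at 309 to 474 units at E18 alone, whereas Sema6d and Plxnb2 were high at both E18 and P70.

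The other B ephrins took other courses. Efnb1 encodes ephrin B1 and averaged 10.3 ± 4.34 units at E18, against 4.62 ± 2.01 at E13 (SD, n = 5 each), with overlapping libraries and with a change of 0.99 on the log2 scale (SE 0.40, limma adjusted p = 0.0446). That call was lost without any 1 of E13 replicates 1, 2 and 4 or E18 replicates 1, 2 and 5, and with a pseudocount of 0.1. Efnb1 then fell at P70 to 2.96 ± 2.27 units (n = 6), with a change of -1.66 on the log2 scale (SE 0.38, limma adjusted p = 0.00149). Efnb2, ephrin B2, known from arterial endothelium, had 4.20, 2.27, 4.93, 3.61 and 4.17 units in the E18 libraries, against 9.10, 10.8, 8.67, 5.28 and 8.40 in the E13 libraries. All E18 values lay below all E13 values, and the log2 change was -0.96 (SE 0.31, limma adjusted p = 0.0134), a call lost with a pseudocount of 0.1. Efnb2 fell again at P70, by 1.33 on the log2 scale (SE 0.30, limma adjusted p = 0.00122), a call lost in edgeR's test on recovered reads. The 3 B ephrins thus all passed as lower at P70 against E18, where 24.0% of all 12353 genes were called lower.

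The A ephrins were spread over the ages, and Efna1 was the one with its highest level at P70. Efna1 encodes ephrin A1, a ligand also made by endothelium, and measured 14.5, 12.6, 19.1 and 15.6 units at E11 and 9.47, 7.21, 11.2, 8.93 and 7.69 units at E13. At E18 it measured 6.84, 8.89, 5.68, 2.87 and 3.20 units, and at P70 the lowest, median and highest values were 11.6, 25.8 and 43.9 units. All 6 P70 libraries lay above all 5 E18 libraries. The P70 mean of 25.6 ± 11.7 units was 4.67 times the E18 mean of 5.50 ± 2.53, with a change of 2.0 on the log2 scale (SE 0.29, limma adjusted p = 1.14e-05). The summed level of 8 endothelial and mural markers was 12.7 to 72.8 units at P70 and 19.2 to 26.7 at E18. P70 replicate 6 had both the highest marker sum and the highest Efna1. Replicate 1, with the next highest sum (27.6 units), had the lowest Efna1, and replicate 5, with a sum of 16.7 units, had 28.1 units of Efna1. The marker sums thus did not order the P70 libraries. Of the 8 markers, Pecam1, Cdh5, Kdr, Tek and Pdgfrb were not listed at P70, and the part of these cells in the Efna1 change was not tested.

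Efna5, an A ephrin known from the mapping of visual axons, had 1.87, 3.80, 4.99, 2.49 and 3.87 units at E18, against 11.5, 12.4, 9.01, 8.49 and 11.0 units at E13. The 2 ages did not overlap, and Efna5 fell by 1.42 on the log2 scale (SE 0.28, limma adjusted p = 0.000277). Efna4 had 6.36, 5.06, 0, 1.19 and 6.39 units at E18, against 8.95, 9.57, 11.6, 10.9 and 10.9 at E13, and 1 of the 5 E18 libraries held none. It fell by 1.61 (SE 0.47, limma adjusted p = 0.00787), a call lost in edgeR's test on recovered reads. Efna4 shares 10.5% of its exonic bases with an antisense gene, which reads without strand cannot separate. At P70, Efna2 fell by 1.49 (SE 0.31, limma adjusted p = 0.000625) and Efna5 by 0.96 (SE 0.27, limma adjusted p = 0.00726), while Efna4 differed by 0.49 (SE 0.46, limma adjusted p = 0.409). The Efna2 call was lost in edgeR's test on recovered reads. Efna3 was first listed at E18, at 4.09 ± 1.45 units, and was lower at P70 at 1.57 ± 1.93, with a change of -1.24 on the log2 scale (SE 0.44, limma adjusted p = 0.0356). Efna3 lost its call under most settings, among them the leaving out of E18 replicates 1, 2, 3 or 5 or P70 replicates 3, 5 or 6.

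Eph receptors were highest at E11 and lowest at P70 as a sum. The listed B class receptors summed to 69.7 ± 8.54 units (SD) over the 4 libraries of E11, 40.1 ± 9.67 over the 5 of E13, 29.6 ± 7.13 over the 5 of E18 and 9.05 ± 4.67 over the 6 of P70. The listed A class receptors summed to 37.7 ± 7.81, 28.9 ± 8.30, 25.5 ± 8.84 and 3.85 ± 1.17 units at these ages. Ephb2, a receptor for B ephrins in axon guidance, fell in all 3 comparisons of neighbouring ages. It had 50.4, 42.1, 37.1 and 44.9 units at E11, and 16.3, 14.7, 20.4, 12.1 and 26.3 units at E13. At E18 it had 8.33, 7.61, 4.97, 5.46 and 8.83 units, and at P70 the lowest, median and highest values were 0.339, 2.40 and 2.85. No library of one age reached into the range of the age before it. The log2 changes were -1.27 for E13 against E11 (SE 0.29, limma adjusted p = 0.00281), -1.22 for E18 against E13 (SE 0.27, adjusted p = 0.000775) and -1.48 for P70 against E18 (SE 0.26, adjusted p = 0.000104).

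Ephb4, best known as the venous receptor of ephrin B2, had 2.98, 3.95, 2.65, 2.60 and 4.31 units at E13, against 12.4, 9.36, 11.5 and 9.51 units at E11. The ages did not overlap, and the log2 change was -1.45 (SE 0.38, limma adjusted p = 0.00884), a call lost with a pseudocount of 0.1. Endothelial markers did not move as 1 group: Pecam1 averaged 3.72 units at E13 and 6.62 at E11, Cdh5 1.37 and 4.62, and Kdr 2.57 and 3.34, and Flt1 and Tek were listed at E11 but not at E13. Cldn5 averaged 31.2 units at E13 and 14.8 at E11, the mural gene Pdgfrb 7.92 and 3.69, and Rgs5, another mural gene, was listed at E13 but not at E11. The sum of these 8 markers was 47.8 to 65.7 units at E13 and 33.3 to 43.4 at E11. Markers of fibroblasts and meninges summed to 37.1 to 140 units at E13 and 247 to 767 at E11, and the part of these cells in the Ephb4 change was not tested. Ephb6, whose kinase domain lacks catalytic activity, averaged 6.98 ± 0.651 units at E18, against 3.24 ± 1.21 at E13, without overlap. Its rise of 0.97 on the log2 scale (SE 0.33, limma adjusted p = 0.0205) was lost without E13 replicate 4 (as with a pseudocount of 0.1). Ephb6 fell at P70 by 1.29 (SE 0.32, limma adjusted p = 0.00286). Ephb3 averaged 3.0 ± 1.40 units at P70, against 6.49 ± 3.81 at E18, and its change of -0.86 (SE 0.29, limma adjusted p = 0.0194) was lost without E18 replicate 1 or P70 replicate 2, in the fit of the 2 ages alone and in edgeR's test on recovered reads. Ephb1 was listed at E11, E13 and E18 but not at P70, with 7.81, 5.34, 6.54, 6.61 and 6.31 units at E18.

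Of the A class receptors, Epha7 had the highest level. It had 16.4, 19.5, 20.7 and 19.8 units at E11, and 19.6, 15.4, 15.3, 8.34 and 10.2 at E13. At E18 it had 25.8, 9.69, 18.1, 10.3 and 9.29 units, and at P70 the lowest, median and highest were 1.78, 2.35 and 3.46. The 3 embryonic ages overlapped, and every P70 library lay below every embryonic library. Epha7 fell by 2.11 at P70 (SE 0.25, limma adjusted p = 1.08e-06), to 2.41 ± 0.613 units, against 14.6 ± 7.23 at E18. Epha3 had 2.28, 1.5, 0.757, 0.713 and 2.38 units at E18, against 4.79, 7.51, 6.34, 3.02 and 3.78 at E13, and fell by 1.28 (SE 0.39, limma adjusted p = 0.0114) with no overlap. It was not listed at P70. Epha4, a receptor that binds both A and B ephrins, was listed at E11 with 7.07, 11.9, 10.1 and 10.5 units and at E13 with 10.5, 4.91, 6.56, 5.23 and 6.35 units, and not at E18 or P70. Epha5 was listed at E13 and E18 and Epha8 at E18 alone, while Epha2 was listed at E11 alone. Epha5 and Epha10, another receptor without kinase activity, passed at E18 against E13 with log2 changes of 0.84 (SE 0.32, limma adjusted p = 0.0461) and 0.86 (SE 0.34, limma adjusted p = 0.0413). Both calls were lost with a pseudocount of 0.1 and when any of several libraries of either age was left out, E13 replicate 4 and E18 replicate 5 among them.

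Among the semaphorins, the class 4 members moved together at E18. All 5 class 4 semaphorins tested rose at E18 against E13, with a median log2 change of 1.51, beside a median of -0.04 over all 11797 genes, of which 22.4% were called higher. Class 4 semaphorins are transmembrane ligands, many of them of B class plexins. Sema4g had 20.1, 25.2, 29.5, 28.9 and 27.7 units at E18, against 9.04, 10.8, 4.39, 3.31 and 7.41 at E13. The ages did not overlap, and Sema4g rose by 1.86 (SE 0.28, limma adjusted p = 1.16e-05). Sema4d, a ligand of Plxnb1, had 6.67, 6.74, 3.94, 6.44 and 6.83 units at E18, against 1.46, 1.21, 1.41, 1.42 and 1.27 at E13. It rose by 1.58 (SE 0.20, limma adjusted p = 1.61e-06), again without overlap. Sema4b had 13.7, 31.6, 20.1, 14.5 and 13.5 units at E18, against 10.7, 9.54, 2.67, 2.82 and 5.90 at E13, and rose by 1.51 (SE 0.33, limma adjusted p = 0.000721) without overlap. Sema4a rose by 1.46 (SE 0.47, limma adjusted p = 0.0128) and Sema4f by 1.23 (SE 0.33, limma adjusted p = 0.00453), each with overlapping libraries. Oligodendrocyte lineage markers summed to 52.5 to 76.3 units at E18 (7 of 10 listed) and 1.28 to 4.59 at E13 (2 of 10 listed), and ependymal markers to 6379 to 9216 and 40.8 to 82.7 units. Both moved with the class 4 rises and with those of Efnb3, Sema6d and Plxnb2 between these ages, and their part in them was not tested.

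At P70 the class 4 members parted. Sema4g fell by 2.0 (SE 0.27, limma adjusted p = 5.27e-06), with a lowest, median and highest value of 2.90, 5.80 and 10.5 units, all below the E18 libraries. Sema4f fell by 1.31 (SE 0.32, limma adjusted p = 0.00318). Sema4b was at 17.6 ± 6.38 units at P70 and 18.7 ± 7.72 at E18, and Sema4d at 6.04 ± 1.74 and 6.12 ± 1.23 units. Their log2 changes of -0.08 (SE 0.32) and -0.03 (SE 0.20) did not pass (limma adjusted p = 0.861 and 0.923), and neither did that of Sema4a (-0.75, SE 0.45, adjusted p = 0.192).

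Sema6d, a transmembrane semaphorin known as a ligand of Plxna1, was the semaphorin with the highest level, and it was high at both later ages. It measured 4.33, 3.89, 3.94 and 2.97 units at E11 and 4.52, 8.06, 6.56, 2.69 and 4.97 units at E13. At E18 it measured 83.2, 63.1, 35.9, 52.2 and 72.6 units, and at P70 the lowest, median and highest values were 50.4, 58.0 and 83.3. E18 and P70 overlapped, and both lay above all earlier libraries. The E18 mean of 61.4 ± 18.3 units was 11.5 times the E13 mean of 5.36 ± 2.05, with a change of 3.30 on the log2 scale (SE 0.24, limma adjusted p = 2.14e-10). The P70 mean of 63.1 ± 12.3 units differed from it by 0.07 on the log2 scale (SE 0.23, limma adjusted p = 0.822). E18 replicate 3, which held the lowest Sema6d of its age, also had the lowest Efnb3 and the lowest ependymal marker sum, while E18 replicate 5, with nearly as low an ependymal sum, had the next highest Sema6d.

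Sema5b, a transmembrane semaphorin with thrombospondin repeats, went the other way. It had 29.6, 36.4, 29.7 and 31.9 units at E11, 33.3, 26.4, 23.4, 23.7 and 32.7 at E13, and 24.4, 17.2, 22.0, 16.8 and 13.1 at E18. At P70 the lowest, median and highest values were 2.3, 5.13 and 12.6 units, all below the E18 libraries, and Sema5b fell by 1.59 (SE 0.25, limma adjusted p = 3.37e-05). Its earlier changes of -0.20 (SE 0.28, limma adjusted p = 0.676) and -0.57 (SE 0.26, limma adjusted p = 0.0779) did not pass. Sema6a, a ligand of Plxna2 and Plxna4, rose by 0.73 at E13 against E11 (SE 0.25, limma adjusted p = 0.0438), a call lost when any E11 replicate or E13 replicate 1, 2, 3 or 5 was left out and with a pseudocount of 0.1. Sema6a fell by 1.46 at P70 (SE 0.23, limma adjusted p = 3.65e-05), to 2.17 ± 0.873 units, against 7.52 ± 1.16 at E18. Between E13 and E18, Sema6a went from a mean of 10.6 to 7.52 units and Sema6c from 4.07 to 2.29, and neither change passed. Sema5a was listed at E18 alone.

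Class 3 semaphorins, the secreted ones, were low at every age, with summed levels of 10.8 ± 1.91, 12 ± 1.80, 6.22 ± 1.02 and 7.18 ± 1.77 units at E11, E13, E18 and P70. Sema3f, a ligand of Nrp2, led the class with 8.24, 7.47, 4.04 and 8.05 units at E11 and 5.21, 6.8, 4.10, 5.13 and 5.73 at E13. It had 3.23, 3.13, 2.66, 2.16 and 4.19 units at E18, and at P70 a lowest, median and highest value of 0.491, 2.36 and 3.49. Neighbouring ages overlapped, and no change of Sema3f passed. Sema3b was the class 3 member with calls: 1.09 at E13 against E11 (SE 0.30, limma adjusted p = 0.0122), -1.01 at E18 against E13 (SE 0.29, adjusted p = 0.00602) and 0.71 at P70 against E18 (SE 0.28, adjusted p = 0.049). The last of these was lost when E18 replicate 1, 3 or 5 or P70 replicate 1, 4, 5 or 6 was left out, and also with a pseudocount of 0.1 and in the fit of the 2 ages alone. Sema3a was listed at E11 alone, Sema3c at E11 and E13, and Sema3e at E13, E18 and P70, each at means of 1.01 to 1.79 units.

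**Figure D3:**
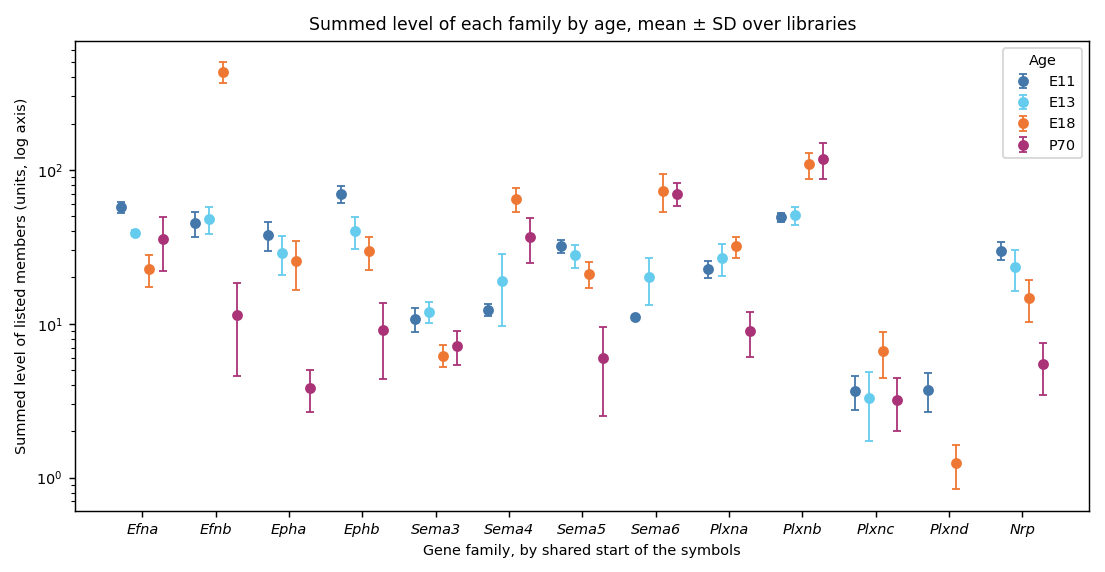
Each point is the mean of the summed levels of the listed members of a family over the libraries of an age, with the SD as bars, on a log y axis in units. The B ephrins peaked at E18, and the Eph receptors and A class plexins were lowest at P70. The sums of the class 4 and class 6 semaphorins and B class plexins were higher at E18 than at E13. In class 6, Sema6d alone of 3 tested members was called higher there, and Sema6a and Sema6c had lower means at E18.

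Plexins, the semaphorin receptors, moved together at P70 in the A class but not in the B class. The A class plexins work with neuropilins for class 3 ligands and bind class 6 ligands directly. All 4 fell at P70 against E18, where 24.0% of all 12353 genes were called lower. Plxna3 had 6.94, 6.24, 9.95 and 8.45 units at E11, 11.7, 17.6, 10.6, 6.93 and 8.93 at E13, and 13.1, 12, 13.8, 9.43 and 13.3 at E18. At P70 the lowest, median and highest values were 0.173, 1.88 and 4.01 units, below every E18 library, and Plxna3 fell by 2.22 (SE 0.29, limma adjusted p = 4.31e-06). Plxna1 fell by 1.64 (SE 0.22, limma adjusted p = 3.91e-06), Plxna2 by 1.28 (SE 0.28, adjusted p = 0.000916) and Plxna4 by 0.86 (SE 0.27, adjusted p = 0.0149). The highest P70 and lowest E18 values were 4.15 and 6.23 units for Plxna1, 2.90 and 4.41 for Plxna2, and 4.45 and 5.02 for Plxna4. Neuron markers summed to 465 to 902 units at P70 and 1103 to 3791 at E18, which is the same direction. They did not move as 1 group: Tubb3 averaged 67.5 units at P70 and 537 at E18, Stmn2 81.4 and 646, and Gap43 160 and 871. Rbfox3 (3.96 and 8.0) and Nefl (9.67 and 18.5) were lower too, and Dcx was not listed at P70. Snap25 averaged 160 and 104 units, Th 132 and 76.3, and Syt1 24.2 and 23.6. The part of neurons in the plexin changes was not tested. Plxna4 had risen by 1.36 at E18 against E13 (SE 0.27, limma adjusted p = 0.0004), and was not listed at E11.

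From E13 on, the B class plexins had the highest summed level of the receptor families. At E11 they summed to 49.1 ± 3.52 units, below the B class Eph receptors. Plxnb2, a receptor of class 4 semaphorins, had 34.4, 32.4, 24.7 and 29.7 units at E11 and 32.2, 27.6, 31.0, 25.8 and 32.6 at E13. At E18 it had 99.6, 77.1, 78.3, 72.7 and 58.6 units, and at P70 the lowest, median and highest values were 70.8, 80.4 and 132. E11 and E13 overlapped, as did E18 and P70, with no overlap between the earlier and the later pair. Plxnb2 rose by 1.33 at E18 against E13 (SE 0.18, limma adjusted p = 3.46e-06), and its change of 0.23 at P70 did not pass (SE 0.17, adjusted p = 0.302). Plxnb1, the receptor of Sema4d, had 40.2, 32.0, 27.4, 25.7 and 25.3 units at E18, against 26.5, 21.7, 19.2, 15.0 and 21.8 at E13. Its rise of 0.51 (SE 0.18, limma adjusted p = 0.0243) was lost without E13 replicate 3 or 4 or E18 replicate 1 or 2. It fell by 0.63 at P70 (SE 0.17, limma adjusted p = 0.00644).

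Plxnb3 was listed at E18 and P70, with a lowest, median and highest value of 1.6, 6.05 and 12.3 units at P70, against 2.26, 0.707, 0.0667, 2.0 and 1.58 at E18. The ranges overlapped through P70 replicate 3, and Plxnb3 rose by 1.59 (SE 0.42, limma adjusted p = 0.00672). Markers of the oligodendrocyte lineage summed to 233 to 758 units at P70 and 52.5 to 76.3 at E18. P70 replicate 4 had the highest value of both, and replicate 6 the next highest (a sum of 700 units and 8.64 units of Plxnb3). Replicate 3 had the lowest Plxnb3 with a marker sum of 457 units. Replicate 2 had the lowest marker sum with 7.54 units of Plxnb3. The marker sums thus did not order all P70 libraries, and the part of these cells in the Plxnb3 change was not tested. Plxnc1, a receptor of Sema7a, had 4.4, 4.62, 7.35, 7.01 and 9.73 units at E18, against 3.72, 5.71, 3.08, 1.5 and 2.54 at E13. It rose by 0.85 (SE 0.28, limma adjusted p = 0.0163), lost without E13 replicate 4 or E18 replicate 5, and fell by 0.86 at P70 (SE 0.27, adjusted p = 0.015), lost without E18 replicate 5. Plxnd1, a receptor of Sema3e, was listed at E11 with 3.96, 3.84, 4.82 and 2.3 units and at E18 with 1.24, 1.23, 1.89, 0.821 and 1.03 units, and not at E13 or P70.

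The neuropilins, which bind class 3 semaphorins, had their calls at different ages. Nrp1 had 8.88, 14.4, 5.90, 4.64 and 4.01 units at E13, against 18.1, 14.3, 18.3 and 15.1 at E11. E13 replicate 2, the library with the highest neuron marker sum of its age (3571 units), reached into the E11 range, and Nrp1 fell by 1.15 (SE 0.33, limma adjusted p = 0.0161). It had 9.97, 10.1, 14.1, 6.51 and 10.3 units at E18, and at P70 a lowest, median and highest value of 0.614, 1.40 and 4.30, below every E18 library. Nrp1 fell by 2.15 at P70 (SE 0.30, limma adjusted p = 8.63e-06). Nrp2 had 16.1, 17.5, 10.1 and 10.1 units at E11 and 19.7, 18.5, 14.4, 13.4 and 12.8 units at E13. At E18 it had 4.68, 5.28, 7.07, 2.15 and 3.69 units, all below E13, and fell by 1.64 (SE 0.25, limma adjusted p = 1.43e-05). At P70 the lowest, median and highest were 2.08, 3.92 and 4.98 units, and the change of -0.18 did not pass (SE 0.24, limma adjusted p = 0.584).

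The members were then counted over the families. For E13 against E11, 2 of 35 tested members rose and 3 fell, that is 14.3%, beside 20.9% called over all 11567 genes (9.44% higher, 11.5% lower). In the fit of these 2 ages alone 4 members rose and 8 fell, and on recovered reads 6 of 24 tested fell. For E18 against E13, 15 of 37 rose and 7 fell, 59.5% beside 47.4% of all 11797 genes (22.4% higher, 25.0% lower), and the members' median log2 change was 0.18, beside -0.04. The fit of the 2 ages alone had 11 falling, and edgeR on recovered reads had 4 of 26 tested. Without E13 replicate 4, 9 members rose, with Ephb6, Plxnc1, Plxnb1, Epha5, Epha10 and Efnb1 no longer passing. For P70 against E18, 3 of 37 rose and 21 fell, 64.9% beside 40.8% of all 12353 genes (16.9% higher, 24.0% lower), and the members' median was -0.86, beside -0.14. Those that fell were 10 of 14 tested Eph receptors and ephrins, 4 of 13 semaphorins and 7 of 10 plexins and neuropilins. When libraries were scaled to a common median, the median of all genes was -0.00 in place of -0.14, the split over all genes was 2523 higher and 2261 lower in place of 2082 and 2960, and the members' counts were 3 higher and 20 lower. Members listed at 1 of 2 neighbouring ages had no test: 3 at E11 and 4 at E13 in the first comparison, 2 at E13 and 6 at E18 in the second, and 6 at E18 in the third.

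**Figure D4:**
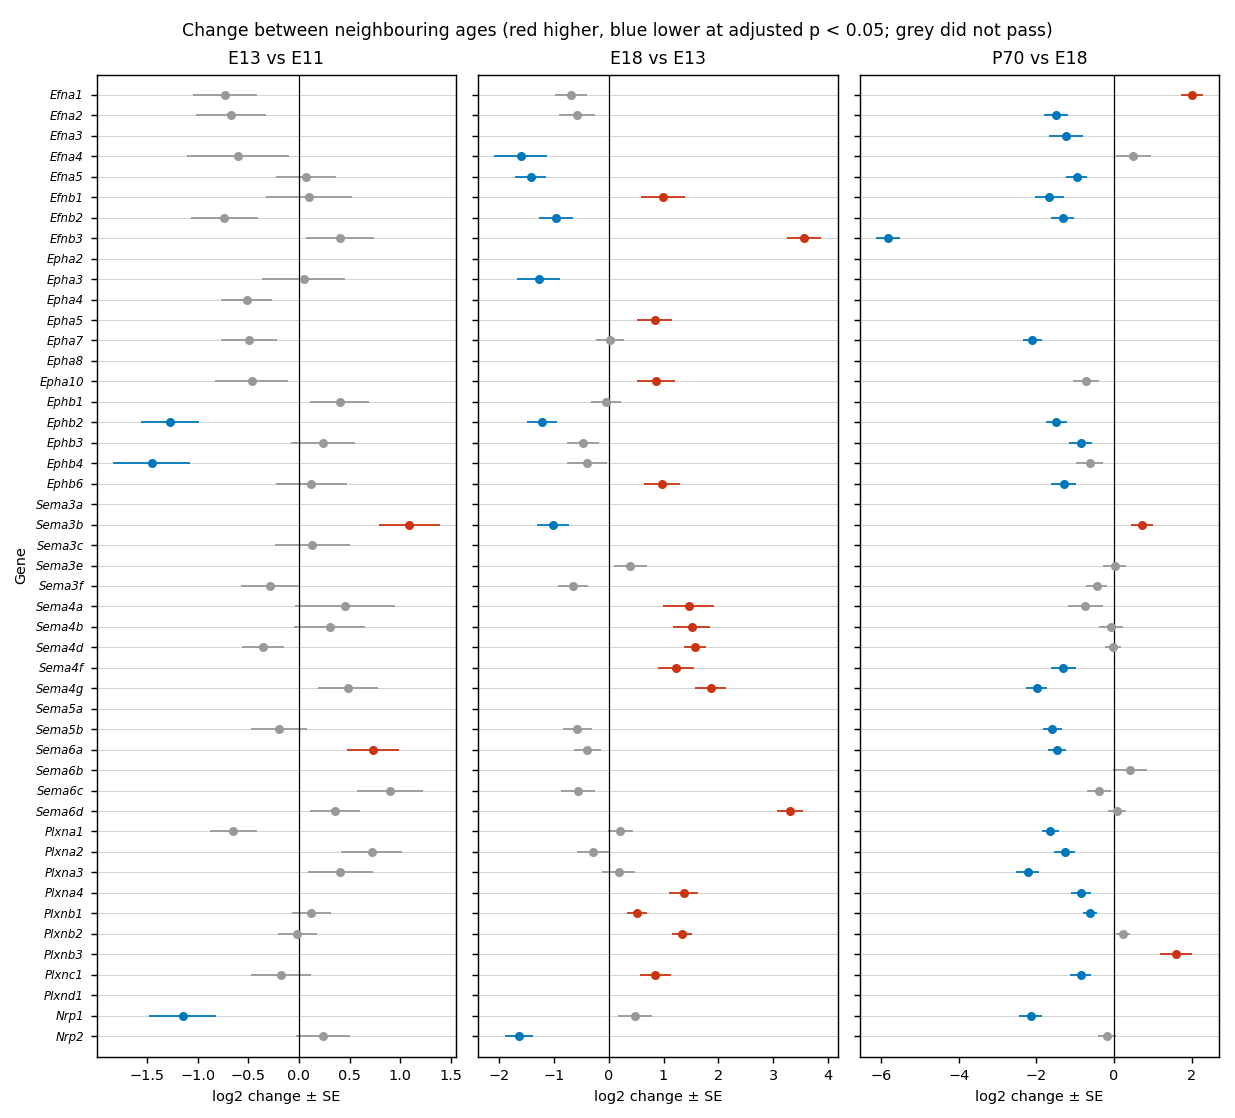
Each point is the log2 change of a member between neighbouring ages with its SE, from limma, in 3 panels with their own x axes, coloured red where higher and blue where lower at an adjusted p under 0.05, and grey otherwise. The P70 panel holds 21 blue and 3 red points, and the E18 panel 7 blue and 15 red points.

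Intracellular partners were taken from 2 lists of textbook signalling genes. Of the Eph and ephrin partners, 4 of 28 rose and 3 fell at E13 against E11 (25.0% called, beside 20.9% of all genes), and 6 of 28 rose and 4 fell at E18 against E13 (35.7%, beside 47.4%). At P70 against E18, 2 of 26 rose and 13 fell (57.7%, beside 40.8%), while 3 of the 11 that could be tested on recovered reads fell there. Of the semaphorin and plexin partners, 3 of 29 rose and 2 fell at E13 (17.2%), 9 of 29 rose and 5 fell at E18 (48.3%), and 1 of 31 rose and 18 fell at P70 (61.3%), beside the same shares of all genes. Ngef (ephexin), an exchange factor downstream of EphA receptors, rose at both later steps, by 2.51 at E18 (SE 0.29, limma adjusted p = 3.5e-07) and 1.59 at P70 (SE 0.28, adjusted p = 0.00011). Chn2, a chimaerin that acts on Rac, fell by 3.81 at E18 (SE 0.30, limma adjusted p = 1.4e-09), to 5.28 units, against 92.9 at E13. The collapsin response mediators of semaphorin signalling fell at P70, with Dpysl3 at -5.01 (SE 0.29, limma adjusted p = 4.1e-11), Crmp1 at -3.81 (SE 0.31, adjusted p = 5.9e-09) and Dpysl5 at -3.56 (SE 0.35, adjusted p = 9.7e-08). L1cam, a neuropilin partner, rose by 2.72 at E18 (SE 0.45, limma adjusted p = 3.7e-05) and fell by 2.29 at P70 (SE 0.43, adjusted p = 0.00024). The neuron marker sums given above were lower at P70 too, though Snap25 and Th averaged higher there and Syt1 was level. The part of neurons in the partner changes was not tested.

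In the cultured spheres, 40 members passed the filter on low counts, and 10 were higher and 9 lower in MB than in FB. That is 47.5% of those tested, beside 29.6% of all 12886 genes (15.3% higher, 14.3% lower), with a median log2 difference of -0.05, beside -0.02. Without MB replicate 2, 5 members were lower, with Efnb2, Efna4, Sema4a and Plxna3 no longer passing. Sphere levels are CPM (counts scaled to library size), read within a gene. The 8 ependymal markers summed to 42.1 ± 6.13 CPM in MB and 21.3 ± 2.41 in FB (SD, n = 5 each), and the 5 neural stem markers to 2663 ± 146 and 4535 ± 130 CPM. Oligodendrocyte lineage markers summed to 3132 ± 288 CPM in MB and 3496 ± 162 in FB, and the part of these cells in the differences below was not tested.

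Among those higher in MB, Sema3a, a secreted ligand of Nrp1, had 40.2, 39.6, 43.1, 42.4 and 30.1 CPM in MB, against 18.7, 28.3, 21.5, 23.0 and 18.9 in FB. The groups did not overlap, and the log2 difference was 0.80 (SE 0.15, edgeR adjusted p = 0.000539). Its receptor Nrp1 had 48.8, 23.2, 38.1, 44.7 and 54.3 CPM in MB, against 22.8, 29.3, 23.6, 28.0 and 17.1 in FB. MB replicate 2 lay inside the FB range and the other 4 above it, and the difference was 0.77 (SE 0.20, edgeR adjusted p = 0.00567). Efna5 averaged 8.19 ± 2.02 CPM in MB and 2.53 ± 0.985 in FB, 1.66 higher on the log2 scale (SE 0.36, edgeR adjusted p = 0.00149). Epha3, a receptor of A ephrins, averaged 5.60 ± 2.08 and 1.10 ± 1.27 CPM, a difference of 2.3 (SE 0.69, edgeR adjusted p = 0.0155). Epha7 was higher by 1.12 (SE 0.28, edgeR adjusted p = 0.00459) and Epha5 by 0.47 (SE 0.14, edgeR adjusted p = 0.0126). The 2 members that rose at E18 by over 3 on the log2 scale in captured cells, Efnb3 and Sema6d, were higher by 1.28 (SE 0.39, edgeR adjusted p = 0.0166) and 0.31 (SE 0.10, adjusted p = 0.021), calls lost without MB replicate 2 for Efnb3 and without MB replicate 1 or 5 for Sema6d. Plxnc1 (0.71) and Ephb1 (1.80) passed with edgeR adjusted p = 0.037 (SE 0.25) and 0.0411 (SE 0.64), and each was lost without any of 7 of the 10 libraries.

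Among those lower in MB, Sema5b had 22.8, 22.8, 49.99, 34.3 and 28.2 CPM in MB, against 67.1, 73.4, 81.7, 79.7 and 85.1 in FB. The groups did not overlap, and the log2 difference was -1.31 (SE 0.17, edgeR adjusted p = 7.38e-06). Plxna1 had 27.9, 21.4, 37.4, 21.8 and 23.2 CPM in MB, against 54.7, 55.7, 47.6, 56.1 and 49.2 in FB, without overlap and with a difference of -1.02 (SE 0.15, edgeR adjusted p = 2.9e-05). Plxnb1 had 44.8, 30.5, 42.4, 36.4 and 49.9 CPM in MB, against 74.1, 65.1, 65.8, 60.7 and 66.5 in FB, a difference of -0.73 (SE 0.12, edgeR adjusted p = 0.000154), also without overlap. Efnb1 had 5.20, 2.10, 7.12, 5.85 and 4.45 CPM in MB, against 11.5, 13.2, 7.86, 9.25 and 10.4 in FB, and was lower by 1.10 (SE 0.31, edgeR adjusted p = 0.0113). Sema5a, the other class 5 semaphorin, was lower by 0.76 (SE 0.24, edgeR adjusted p = 0.0222), a call lost without MB replicate 1 or 3 or FB replicate 3. Efnb2 (-1.77, SE 0.63, edgeR adjusted p = 0.0392), Sema4a (-1.20, SE 0.44, adjusted p = 0.0476), Efna4 (-0.81, SE 0.28, adjusted p = 0.0319) and Plxna3 (-0.55, SE 0.20, adjusted p = 0.0466) passed as well and each was lost without any of 6 to 8 of the libraries, Sema4a and Efna4 also with no filter on low counts. Plxnb2 averaged 267 ± 16.6 CPM in MB and 274 ± 26.6 in FB, a difference of -0.06 (SE 0.07, edgeR adjusted p = 0.575).

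**Figure D5:**
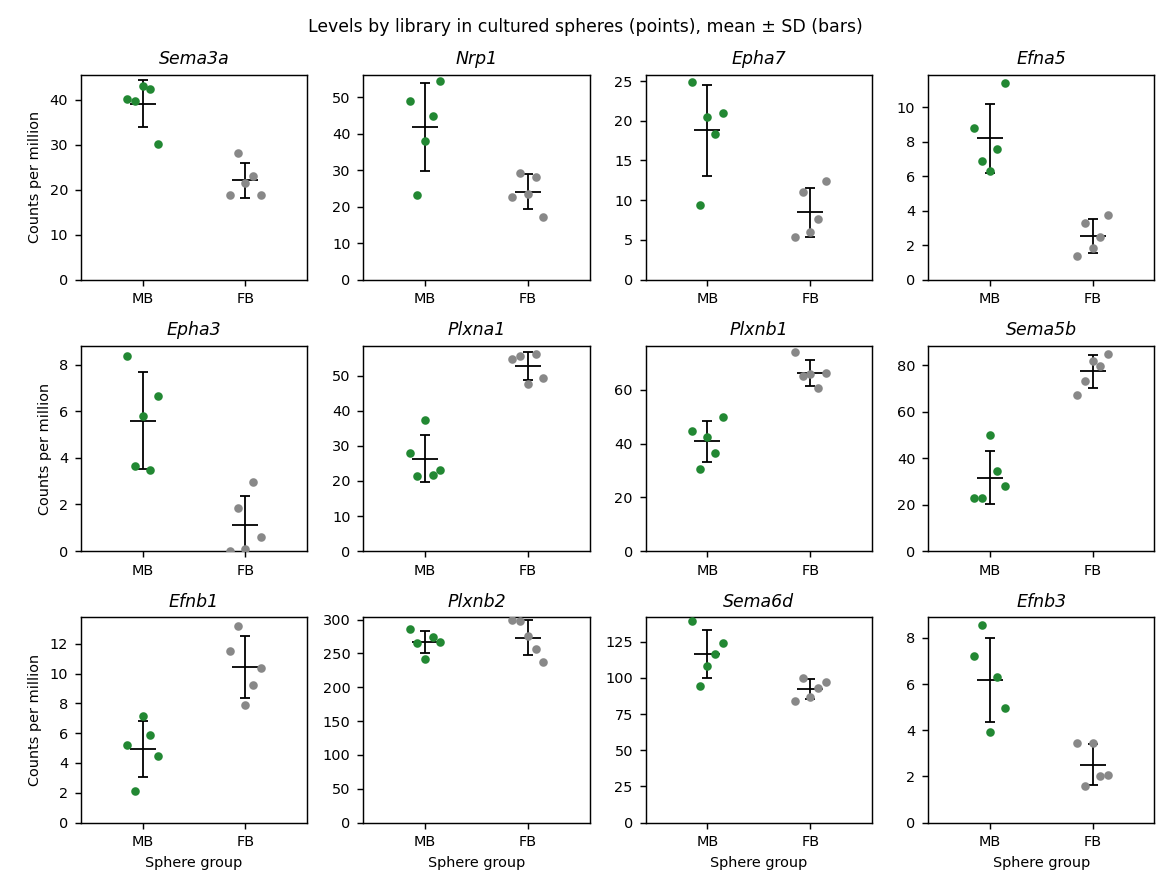
Points are sphere libraries, bars the mean ± SD, with MB left of FB on the x axis and CPM on a linear y axis that starts at 0 in each of the 12 panels. Sema3a stood at 30.1 to 43.1 CPM in MB and 18.7 to 28.3 in FB, whereas Sema5b stood at 22.8 to 49.99 in MB and 67.1 to 85.1 in FB.

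Of the partners in spheres, 2 of 32 Eph and ephrin partners were higher in MB and 7 lower (28.1%), and 2 of 32 semaphorin and plexin partners were higher and 9 lower (34.4%). Both shares are near the 29.6% called over all genes, but the directions differ from it. In the 2 lists 6.25% and 6.25% were higher, beside 15.3% of all genes, and 21.9% and 28.1% were lower, beside 14.3%. Chl1, a cell adhesion molecule that partners Nrp1, averaged 270 CPM in MB and 23.5 in FB, a log2 difference of 3.5 (SE 0.08, edgeR adjusted p = 8.3e-17). Crmp1, a collapsin response mediator, averaged 36.5 and 136 CPM, a difference of -1.92 (SE 0.11, edgeR adjusted p = 4.4e-11). Pak1, a kinase downstream of Eph receptors and Rac, averaged 19.7 and 76.3 CPM, a difference of -1.98 (SE 0.12, edgeR adjusted p = 2e-10).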

How the data were processed

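Per the labels' protocols, cDNA was made by the full-length Smart-seq2 method, which has no molecular identifiers, and tagged with Tn5; no strand is marked, so antisense and overlapping genes cannot be separated (14 member genes share exonic bases with another gene, at most 14.1%). The submitters' processing notes name STAR 2.3, Salmon 1.6.0, DESeq2 1.34.0, mm10 and GRCm39 without a role. For the 20 captured libraries the authors deposited normalized values of a unit that the sources used here do not state; they are not log scaled and behave as RPKM. Of 15139 lines, 142 with 11 repeated symbols were left out. The authors deposited whole-number counts for 10 sphere libraries.

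Captured values were tested with limma 3.58.1 (R 4.3.3) on log2(value + 1), with all 20 libraries in 1 fit, over genes listed at both ages; on this scale changes of low genes come out too small. For sphere counts edgeR 4.0.16 was used (quasi-likelihood test, TMM, default filter), and DESeq2 1.42.0 was an alternative. Benjamini-Hochberg adjustment ran within each comparison over all its tested genes, and the threshold was 0.05. Whole reads were recovered from the steps of the captured values, within 0.01 reads of a whole number, for 11068 genes (73.8%), 35 members among them, and tested with edgeR as an alternative chosen after seeing the data. The tests were run on simulated data first.

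Members, lists and the rule for named genes were chosen with earlier results of these data known. In full, the text gives in each comparison up to 5 rises and 5 falls among members past the threshold whose groups do not overlap and whose higher group averages 5 units or 10 CPM or more, members listed at 1 of 2 ages at that level, and the member with the highest mean of each family. Other settings tried were a pseudocount of 0.1, a minimum mean of 5 units, median scaling, a fit of the 2 ages alone, a replicate block, other scaling and no filter for spheres, and each library left out in turn. Replicate numbers were not taken to pair libraries, and no columns were left unmatched (0). Gene positions and exonic lengths come from GENCODE vM21 on GRCm38.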

Additional observations from a re-analysis of the deposited data

Results flagged for a closer look

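In 7 of 147 groups of member values, 1 library stood apart from the others of its group by Dixon's test, where chance gives about 1 in 20. At P70, replicate 3 held the highest Nrp1 (4.296 units, next 1.653) and the highest Plxna1 (4.15 units, next 1.93). At E18, replicate 3 held the lowest Sema4d, at 3.943 units, with the next library at 6.438. In spheres, MB replicate 5 held the lowest Sema3a (30.12 CPM, next 39.62), and FB replicate 1 held the highest Efna1 (7.04 CPM, next 3.203). Sema3f, which did not pass the filter on low counts, stood apart in MB replicate 1 (0.8667 CPM, next 0.2375) and in FB replicate 3 (1.507 CPM, the other 4 libraries at 0).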

How the results depend on the processing

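No member's call changed direction under any setting tried. With E13 against E11, the fit of the 2 ages alone called 1639 genes higher and 2172 lower, with 4 members higher, 8 lower and 4 semaphorin partners lower, while the pseudocount of 0.1 and the minimum mean of 5 units (fewer genes tested) each left 1 member higher. On recovered reads 6 members were lower, 2 Eph partners higher and 0 lower (limma: 3), and 5 semaphorin partners higher; edgeR's test holds fewer genes there. With E18 against E13, 9 members were higher at a minimum mean of 5 units, 11 were lower in the fit of the 2 ages and 4 on recovered reads, 3 Eph partners were higher on recovered reads and 3 semaphorin partners lower with the pseudocount of 0.1. With P70 against E18, 1 member was higher at a minimum mean of 5 units and 1 on recovered reads, 8 were lower at the minimum mean, 1 Eph partner was higher in the fit of the 2 ages and 1 on recovered reads, 3 Eph partners were lower on recovered reads, and 1250 genes were lower there in all. With no filter, 4 Eph partners were higher in MB than in FB. Beyond the smaller number of genes tested, the causes were not tested. With single libraries left out, the count of members higher ranged from 1 to 3 (E13 against E11), 9 to 15 (E18 against E13) and 8 to 11 (MB against FB), and of members lower in MB from 5 to 8. Eph partners higher ranged from 1 to 4 (E13 against E11), 1 to 3 (P70 against E18) and 2 to 4 (MB against FB), semaphorin partners higher from 3 to 5 (E13 against E11) and 1 to 2 (P70 against E18), and semaphorin partners lower from 3 to 4 (E18 against E13). Libraries with the same number deviated from their group means with correlations of -0.148 to 0.250 (captures) and -0.0138 to 0.0448 (spheres); with the replicate block, 7 members were lower at E13 than at E11, and 14 and 10 were higher and lower at E18, 2 and 15 at P70 (Efna3, Efna5, Ephb3, Plxna4, Plxnb1, Plxnc1 and Sema3b no longer passing) and 9 and 6 in MB. Depth limits low members most at P70.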
